A study of Mus musculus with 4 samples.

Results

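The TGF-beta and BMP signalling genes described here are 10 genes found by symbol in the deposited FPKM table: the ligands Tgfb1, Tgfb2 and Tgfb3, the type I receptors Tgfbr1 and Acvrl1, the type II receptors Tgfbr2 and Bmpr2, the co-receptors Tgfbr3 and Eng, and the target gene Id1. All 10 had 1 row each among the 46072 genes of the table. The study sequenced poly(A) RNA of endothelial cells, as the labels name them, that were cut by laser from brain vessels of WT mice given no treatment. The brains were fixed by perfusion and an antibody label guided the cutting, going by the series title. The 4 libraries form 1 group, called replicates 1 to 4 here, and there is no second condition to compare. The labels give no age, sex or strain and do not say whether each library came from its own animal, so p-values measure the spread between these libraries, which may be technical.

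TGF-beta ligands are secreted in a latent form and, once released, bring type II and type I receptor kinases together, which phosphorylate SMAD proteins that enter the nucleus and change transcription. In endothelial cells a type I receptor of its own, ALK1, encoded by Acvrl1, works with the type II receptor encoded by Bmpr2 and with endoglin, encoded by Eng, to receive the circulating ligands BMP9 and BMP10. ID proteins are among the first genes this branch switches on, and loss of Eng or Acvrl1 function in people causes hereditary haemorrhagic telangiectasia, a disease of malformed vessels.

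The promoters of Tgfb2 and Tgfb1, the ligands with the highest and the lowest level here, are printed 5′ to 3′ on the gene's strand, from 250 bases before to 50 bases after the annotated start (RefSeq, GRCm38.p6). Capitals mark TATAAA, the TATA box sequence, and CAGAC, a core sequence bound by SMAD proteins, searched on both strands together with GGCGCC, a BMP-type SMAD sequence. No overlap between the marked matches was found in these windows.
Tgfb2 (chr1:186705940-186706239, minus strand): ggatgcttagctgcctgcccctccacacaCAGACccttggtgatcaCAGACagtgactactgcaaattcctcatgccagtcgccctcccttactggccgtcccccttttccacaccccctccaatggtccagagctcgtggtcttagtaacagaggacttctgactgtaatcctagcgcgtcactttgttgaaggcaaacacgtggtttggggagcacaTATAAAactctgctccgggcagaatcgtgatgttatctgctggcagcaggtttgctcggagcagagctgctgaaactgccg
Tgfb1 (chr7:25686752-25687051, plus strand): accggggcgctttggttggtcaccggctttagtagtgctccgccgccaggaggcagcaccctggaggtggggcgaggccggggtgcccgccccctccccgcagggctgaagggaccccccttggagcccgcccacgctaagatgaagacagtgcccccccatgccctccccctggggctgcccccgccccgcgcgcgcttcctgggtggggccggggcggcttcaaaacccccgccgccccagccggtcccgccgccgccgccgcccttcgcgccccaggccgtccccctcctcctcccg
The Tgfb2 window held 1 TATAAA and 2 CAGAC, and the Tgfb1 window held none of the 3 motifs. Of 32851 RefSeq promoter windows, 13.6% held TATAAA, 49.6% CAGAC and 11.9% GGCGCC, so CAGAC in a window of 300 bases is common. Eng held 2 CAGAC, Tgfbr2 held 1, Bmpr2 held 1 GGCGCC, and the windows of the 2 annotated Tgfbr1 starts held 1 GGCGCC and 1 CAGAC. Windows were found for 6 of the 10 genes, and Tgfb3, Tgfbr3, Acvrl1 and Id1 had none. A match describes the letters and shows no bound factor.

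Levels are in FPKM, which divides fragments by transcript length and library total, and they summed to 448678 to 482882 per library. The number of reads behind a value is unknown, and no counting error is given. Endothelial markers were measured, and the summed markers of neurons, oligodendrocytes, astrocytes and choroid plexus were far higher in every library. Of 18 general endothelial markers, 13 lay above 1 FPKM and 1 below (limma, adjusted p under 0.05), with sums of 216 to 248 FPKM, Ly6c1 and Ly6a highest at 68.2 ± 4.29 and 49.5 ± 4.33 and Erg lowest at 0.368 ± 0.123 FPKM (SD, n = 4). All 8 neuronal, 8 oligodendrocyte and 8 astrocyte markers lay above 1 FPKM, with sums of 2082 to 2654, 4888 to 6150 and 921 to 1104 FPKM. The 9 microglial markers, also all above, summed to 227 to 329 FPKM, and the 8 of choroid plexus and ependyma to 11709 to 17202 FPKM. Single genes carried much of these sums. Ttr had 14493 ± 2381, Mbp 3187 ± 376, Snap25 1433 ± 185 and Aldoc 471 ± 60.7 FPKM (SD, n = 4). List medians were 117 ± 1.33 for neurons, 142 ± 18.2 for oligodendrocytes and 100 ± 7.39 for astrocytes. They were 24.3 ± 5.40 for choroid plexus and ependyma, 20.5 ± 2.72 for microglia, 5.25 ± 1.06 for fibroblasts and 3.79 ± 0.637 FPKM for endothelium. Those of smooth muscle, pericytes and perivascular macrophages were 3.40 ± 0.493, 3.15 ± 0.373 and 0.834 ± 0.455 FPKM. Mural and stromal markers lay above 1 FPKM in 5 of 8 cases for pericytes, 7 of 8 for smooth muscle and 7 of 8 for fibroblasts, with sums of 91.3 to 104, 136 to 169 and 63.2 to 69.0 FPKM. Of 5 perivascular macrophage markers 1 lay above, and their sums were 5.84 to 7.72 FPKM. TGF-beta and BMP genes are active in many of these cells, and which cells the RNA of the 10 genes came from was not tested. In such bulk samples, fewer cells of a type and less RNA per cell cannot be told apart.

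Id1 lay far above the other genes and Tgfb1 lay below them, with no overlap of ranges. Between them, Tgfb2 and Tgfb3 had higher means than the 6 receptors and co-receptors, but the range of Tgfb3 overlapped those of Tgfbr2 and Tgfbr1. Mean levels ran over 39.1 ± 3.82 FPKM for Id1, 6.87 ± 1.19 for Tgfb2, 2.76 to 3.68 for the receptors, and 0.890 ± 0.296 for Tgfb1 (SD, n = 4 each). Among all genes above 0 in any library, Id1 stood at the 92.1th percentile of mean FPKM, the receptors at the 58.3th to 62.2th and Tgfb1 at the 44.4th.

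**Figure D1:**
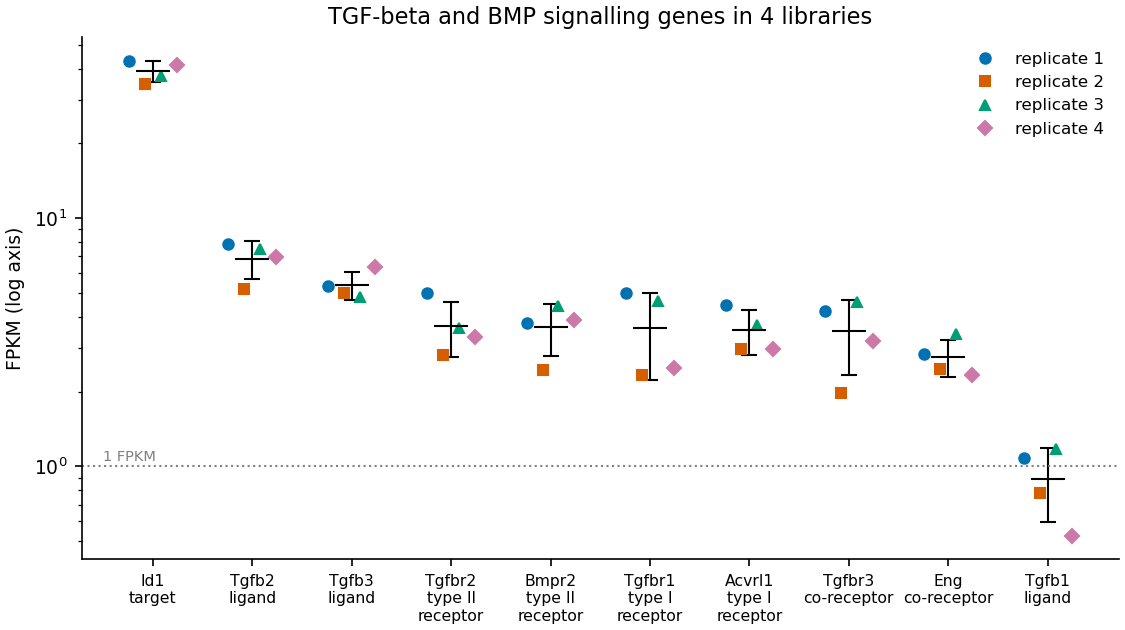
FPKM (log axis) of the 10 genes in each of 4 libraries, with points for replicates 1 to 4, horizontal bars for the mean and error bars for the SD. Id1 sits between 34.7 and 43.1 FPKM, the 6 receptors share the range from 1.97 to 4.99 FPKM, and Tgfb1 lies from 0.526 to 1.18 FPKM.

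Of the 3 ligands, Tgfb2 and Tgfb3 were measured well above Tgfb1. Tgfb2 (ENSMUSG00000039239, chromosome 1, 186622792 to 186705989, GRCm38), the isoform best known from heart and neural development, had 7.83, 5.16, 7.51 and 6.97 FPKM in replicates 1 to 4. Replicate 2 was the low library and the other 3 lay close together. Tgfb3 (ENSMUSG00000021253, chromosome 12, 86056745 to 86079041), known for palate fusion, had 5.34, 4.97, 4.80 and 6.32 FPKM, with replicate 4 highest. Tgfb1 (ENSMUSG00000002603, chromosome 7, 25687002 to 25705077), the isoform of immune regulation, microglia and vessel assembly, had 1.08, 0.779, 1.18 and 0.526 FPKM. Replicates 1 and 3 lay just above 1 FPKM and replicates 2 and 4 below it. Tgfb2 was 8.38 ± 3.27 times Tgfb1 within a library and Tgfb3 6.86 ± 3.57 times (SD, n = 4), higher in 4 of 4 libraries, and both ratios were largest in replicate 4, where Tgfb1 was lowest. The log2(FPKM + 1) differences were 2.06 ± 0.25 and 1.76 ± 0.36. An exact 2-sided sign-flip permutation test gave p = 0.125 for each, the smallest that 4 libraries allow, and 0.176 adjusted over the 45 pairs of the 10 genes. Tgfb2 was above Tgfb3 in 4 of 4 libraries, by 1.29 ± 0.262 times, but their ranges overlapped.

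The type I receptors were measured at nearly the same mean level. Tgfbr1 (ENSMUSG00000007613, chromosome 4, 47353222 to 47414931), which encodes ALK5, the general TGF-beta type I receptor, had 4.99, 2.34, 4.62 and 2.49 FPKM in replicates 1 to 4. Replicates 1 and 3 were high and replicates 2 and 4 low. Acvrl1 (ENSMUSG00000000530, chromosome 15, 101128522 to 101145336), which encodes ALK1, had 4.48, 2.96, 3.71 and 2.96 FPKM, highest in replicate 1. The ratio of Tgfbr1 to Acvrl1 was 1.11, 0.790, 1.24 and 0.839 in the 4 libraries, with a mean of 0.996 ± 0.218 (SD, n = 4). Which of the 2 was higher therefore differed between libraries, 2 each way, and the log2(FPKM + 1) difference was -0.01 ± 0.24 (exact sign-flip permutation p = 1).

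The type II receptors also lay together. Tgfbr2 (ENSMUSG00000032440, chromosome 9, 116084293 to 116175360), which binds TGF-beta ligands and activates ALK5, had 4.98, 2.80, 3.61 and 3.31 FPKM in replicates 1 to 4. Bmpr2 (ENSMUSG00000067336, chromosome 1, 59763400 to 59879014), the type II receptor for BMPs whose human gene is mutated in heritable pulmonary arterial hypertension, had 3.79, 2.43, 4.43 and 3.90 FPKM. Both were lowest in replicate 2, while the high library was replicate 1 for Tgfbr2 and replicate 3 for Bmpr2. The ratio of Tgfbr2 to Bmpr2 was 1.03 ± 0.241 (SD, n = 4), above 1 in 2 libraries and below 1 in the other two. The 4 type I and type II receptors summed to 18.2, 10.5, 16.4 and 12.7 FPKM.

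Co-receptors present ligand to the signalling receptors. Tgfbr3 (ENSMUSG00000029287, chromosome 5, 107106570 to 107289629), betaglycan, which is needed for efficient binding of the Tgfb2 product, had 4.21, 1.97, 4.58 and 3.21 FPKM in replicates 1 to 4. Replicate 2 was again the low library. Eng (ENSMUSG00000026814, chromosome 2, 32646595 to 32682669), endoglin, a protein of vessel endothelium, had 2.83, 2.46, 3.40 and 2.33 FPKM and the lowest mean of the 6 receptors. Tgfbr3 exceeded Eng in 3 of 4 libraries, by a ratio of 1.25 ± 0.307, and their ranges overlapped. Eng shares 61 exonic bases, 1.51% of its own, with Fpgs on the opposite strand. Tgfbr3 shares 297 bases, 4.54%, with the transcript Gm43422 on the same strand. Transcripts on the opposite strand also cover 124 exonic bases of Tgfb2 (2.14%), 127 of Acvrl1 (2.98%), and 257 and 163 of Tgfb3 (7.60% and 4.82%). The sources used here do not say whether counting used strand, so reads in these stretches are uncertain.

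Id1 (ENSMUSG00000042745, chromosome 2, 152736251 to 152737410), which encodes a helix-loop-helix protein that holds back differentiation factors and is a direct target of BMP-type SMADs, had 43.1, 34.7, 37.3 and 41.4 FPKM in replicates 1 to 4. It was 5.79 ± 0.747 times the level of Tgfb2, the next gene (SD, n = 4), higher in 4 of 4 libraries with no overlap, at 2.36 ± 0.15 on the log2(FPKM + 1) scale (exact sign-flip permutation p = 0.125, the smallest possible). Its coefficient of variation, the SD as a percentage of the mean, was 9.75%, the lowest of the 10 genes. The 500 genes nearest to Id1 in mean level had a median of 11.4%.

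Against a fixed level of 1 FPKM, 9 of the 10 genes lay above and Tgfb1 passed in neither direction. The table had 25206 genes that were above 0 somewhere, and 47.7% of them lay above 1 FPKM and 40.1% below. The test was limma's moderated 2-sided test on log2(FPKM + 1), a scale that understates differences of low genes, with Benjamini-Hochberg adjustment over all genes. Differences were 4.32 ± 0.07 (SE) for Id1 (adjusted p = 2.08e-07), 1.96 ± 0.11 for Tgfb2 (adjusted p = 2.33e-05), 1.66 ± 0.09 for Tgfb3 (adjusted p = 2.16e-05) and 0.90 ± 0.12 for Eng (adjusted p = 0.000986). The other receptors lay between 1.13 and 1.21, with adjusted p of 0.000377 for Acvrl1 to 0.00259 for Tgfbr1. Tgfb1 lay at -0.10 ± 0.12 (adjusted p = 0.486), and with each library rescaled to a sum of 1000000 it lay above 1 at 0.52 (adjusted p = 0.0492). That rescaling raises the median gene of at least 1 FPKM by 1.01 on the log2 scale. The median difference was 1.18 over the 10 genes and 0.27 over all genes tested.

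Within each library the genes were also set against the median of the 18 endothelial markers, which averaged 3.79 ± 0.637 FPKM (SD, n = 4), highest in replicate 1 and lowest in replicate 4. Id1, Tgfb2 and Tgfb3 lay above that median, Tgfb1 lay below it, and the 6 receptors passed in neither direction. Of all genes, 32.9% lay above it and 58.1% below, with a median difference of -0.98, against -0.07 over the 10 genes. Id1 was higher by 2.98, 2.88, 3.05 and 3.39 on the log2(FPKM + 1) scale in the 4 libraries. Tgfb2 was higher by 0.72 ± 0.16 (SE) (limma, adjusted p = 8.91e-06) and Tgfb3 by 0.42 ± 0.17 (adjusted p = 0.0142), each in 4 of 4 libraries. Tgfb1 lay at -1.34 ± 0.19 (adjusted p = 2.42e-12) and was lower in 4 of 4 libraries. These small p-values rest on a spread that limma pooled over all genes without limit. With each gene's own spread, chosen after seeing the data, the adjusted p was 0.000815 for Id1, 0.0187 for Tgfb2 and 0.00134 for Tgfb1, and Tgfb3 was lost at 0.0795. Tgfb3 was also lost without replicate 4, at 0.27 (adjusted p = 0.182).

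The 5 receptors other than Eng lay between -0.12 for Tgfbr3 and -0.04 for Tgfbr2 from the endothelial median, with 95% intervals that reached from -0.48 to 0.31. Eng lay at -0.35, with an interval from -0.72 to 0.02 (limma, adjusted p = 0.0735), and was lower in 4 of 4 libraries. Against the mean of the log2 values of the markers in place of their median, all 6 receptors lay below, from -0.77 for Eng to -0.47 for Tgfbr2 (limma, adjusted p = 0.000472 to 0.0142), and Tgfb3 lay at -0.01. The position of the receptors relative to endothelial markers thus depended on how the marker list was summarised.

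**Figure D2:**
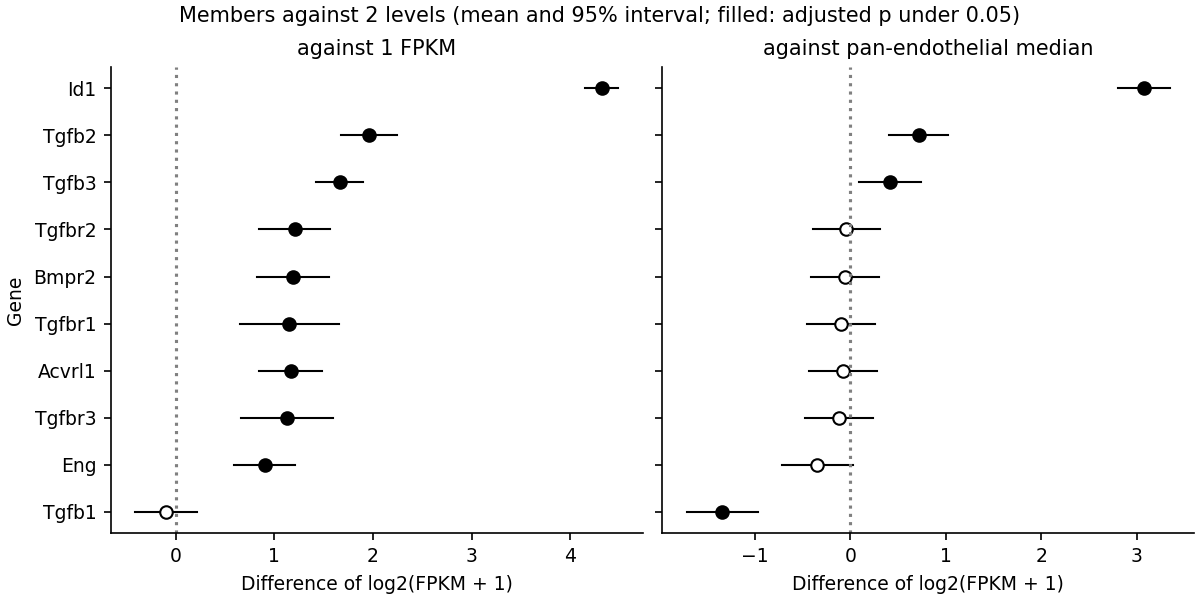
Difference of log2(FPKM + 1) from 1 FPKM (left) and from the pan-endothelial median of the same library (right) for each gene, as the mean of 4 libraries with its 95% interval; filled points have an adjusted p under 0.05. The receptors sit near 1.1 to 1.2 on the left except Eng at 0.90, and their intervals cross 0 on the right.

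The order by mean was Id1, Tgfb2, Tgfb3, Tgfbr2, Bmpr2, Tgfbr1, Acvrl1, Tgfbr3, Eng and Tgfb1. Of the 9 pairs of neighbours in this order, 2 had ranges that did not overlap, Id1 over Tgfb2 and Eng over Tgfb1. Eng was 2.63, 3.16, 2.89 and 4.44 times Tgfb1 in the 4 libraries. All 15 pairs among the 6 receptors had overlapping ranges, and 2 of those 15 kept 1 order in every library. Over all 45 pairs, 32 kept 1 order in every library and 27 had ranges apart.

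**Figure D3:**
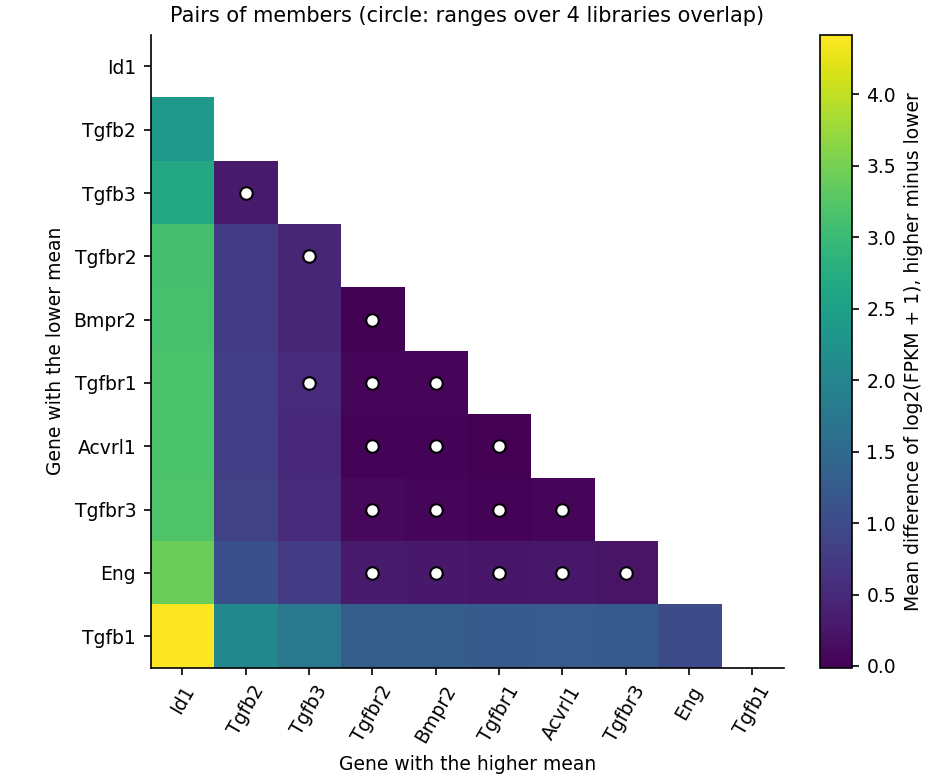
Mean difference of log2(FPKM + 1) for each pair of the 10 genes, the gene with the higher mean on the horizontal axis and the lower on the vertical; circles mark pairs whose ranges over 4 libraries overlap. The 15 receptor pairs are all circled, and all pairs with Id1 or Tgfb1 are apart.

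Replicate 2 was the low library for most of the 10 genes. The lowest value stood in replicate 2 for 7 genes, in replicate 4 for 2, in replicate 3 for 1 and in replicate 1 for 0. Among 13586 annotated genes averaging 1 FPKM or more, the shares were 27.5%, 23.9%, 23.6% and 25% in the same order of libraries. All 10 genes lay below their own mean in replicate 2, 6 in replicate 4, 3 in replicate 3 and 0 in replicate 1, beside 49%, 52.5%, 47.9% and 48.9% of those annotated genes. Summed cell type markers also moved in replicate 2, where those of neurons (2654 FPKM), oligodendrocytes (6150 FPKM), astrocytes (1104 FPKM), microglia (329 FPKM), endothelium (248 FPKM), pericytes (104 FPKM) and smooth muscle (169 FPKM) were highest of the 4 libraries and those of choroid plexus and ependyma (11709 FPKM) lowest. Such sums follow their highest genes, and some other markers of these lists moved otherwise. Most listed markers of neurons, oligodendrocytes, microglia and smooth muscle were highest in replicate 2, while most of astrocytes and pericytes were not. Syt1, the only listed neuronal marker not highest there, had 111, 97.3, 110 and 97.1 FPKM in replicates 1 to 4. Rgs5, a pericyte marker, had 23.6, 17.9, 19.7 and 17.7 FPKM. The median of the 18 endothelial markers was 4.60 FPKM in replicate 1 and 3.88 FPKM in replicate 2. The part of these cell types in the low values of the 10 genes was not tested.

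Long transcripts moved between libraries as well. Genes were put in 6 equal classes by longest annotated transcript. In the longest class, from 5408 bases up, the lowest value stood in replicates 1 to 4 for 9.27%, 57.2%, 9.14% and 24.4% of genes, and 25.9%, 79.7%, 24.5% and 65.1% lay below their own mean. The median deviation from a gene's own mean in that class was 0.14, -0.22, 0.14 and -0.07 (log2) in replicates 1 to 4. In the shortest class the medians were -0.09, 0.00, 0.00 and 0.10.

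Tgfbr1, Tgfbr2, Bmpr2 and Tgfbr3, with longest transcripts of 5756, 8092, 12899 and 6087 bases, belong to the longest class. They deviated by -0.41, -0.28, -0.41 and -0.55 in replicate 2. Tgfb2, with 5116 bases in the next class, deviated by -0.34, more than Tgfbr2. Acvrl1, with 3640 bases, deviated by -0.18, Eng, with 3422 bases, by -0.11 and Id1, with 1160 bases, by -0.16. The coefficient of variation was 38.5% for Tgfbr1, 33.4% for Tgfbr3, 25.3% for Tgfbr2 and 23.4% for Bmpr2, while Tgfb1, with 2573 bases, had 33.2%. Each of these receptors was set beside the 500 genes nearest in mean level, whose median was 23.1% to 23.4%. For the genes nearest to Tgfb1 the median was 41.8%. After the median deviation of the length class was removed from each library, chosen after seeing the data, the coefficients of these 4 receptors were 24.8%, 19.9%, 15.1% and 14.4%. The medians of the nearest genes are from values as deposited and were not recomputed after this step. The same step took Id1 to 12.4%, Tgfb3 to 15.8%, against 12.7% as deposited, and Tgfb1 to 37.8%, the highest of the 10 genes after this step. As deposited, Eng had 17.4%, against 27.0% for genes of like level. The part of transcript length in these differences between libraries was not tested further.

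**Figure D4:**
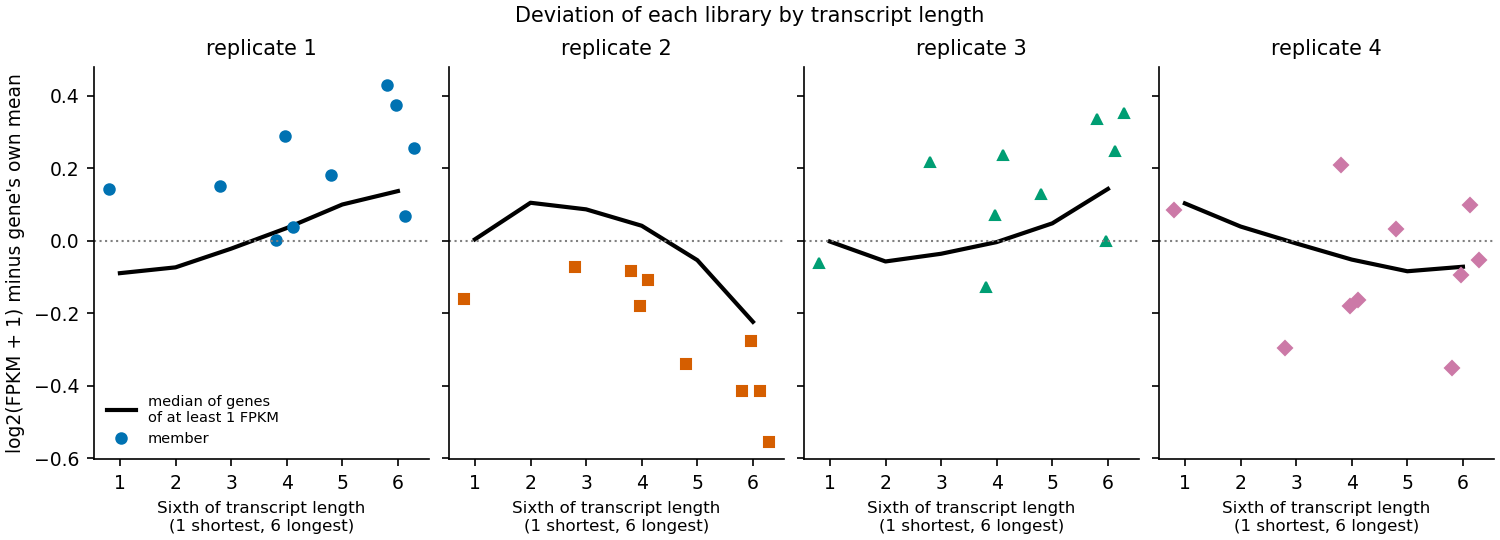
Deviation of log2(FPKM + 1) from each gene's own mean, by class of longest annotated transcript (1 shortest, 6 longest), in 1 panel per library; the line is the median of the annotated genes of 1 FPKM or more and points are the 10 genes. In replicate 2 the line falls to -0.22 in the longest class and all 10 points lie below 0.

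Beyond the 10 genes, 82 further genes of the pathway were listed in 9 groups by role. Of these, 48 lay above 1 FPKM, 13 below, 18 passed in neither direction and 3 were listed at 0 in all libraries (limma, adjusted over all genes). So 58.5% of the 82 lay above, beside 47.7% of the 25206 genes above 0 in any library. The first share counts the 3 genes listed at 0, and the second leaves out such genes. Against the endothelial median, 20 of the 82 lay above, 44 below and 15 passed in neither direction. Of the 25206 genes, 32.9% lay above that median and 58.1% below.

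**Figure D5:**
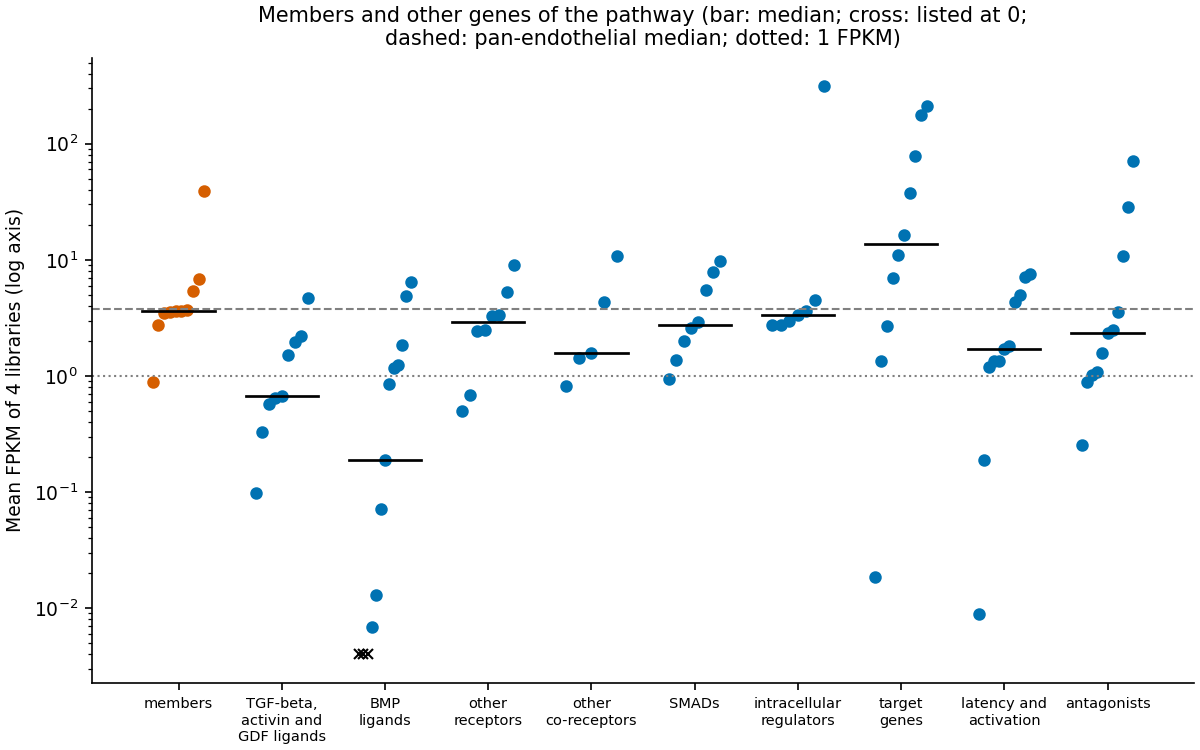
Mean FPKM (log axis) of the 10 genes (left, orange) and of 82 other pathway genes by role (blue), with each group's median as a bar and genes listed at 0 as crosses at the bottom. The target genes have the highest group median, 13.7 FPKM, and the BMP ligands the lowest, 0.190 FPKM.

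The ligands that ALK1 and endoglin are known for were listed at 0. Gdf2, which encodes BMP9 and is made mainly in liver, and Bmp10, made mainly in heart, were both listed at 0 in all 4 libraries, as was Gdf6. An exact 0 in such a table can also be a failed estimate. Of the 13 BMP ligands, 3 lay above 1 FPKM and 4 below. Bmp7 had 6.44 ± 1.08 FPKM, Bmp6, known from iron control by liver endothelium, 4.89 ± 0.593, Bmp4 1.84 ± 0.394, and Bmp3 1.25 ± 0.220 (SD, n = 4), the last in neither direction. Of 9 activin and growth differentiation factor genes, 3 lay above and 4 below. Inha, the inhibin alpha subunit, had 4.73 ± 0.946 and Inhba 1.97 ± 0.719 FPKM, Gdf11 had 2.66, 1.17, 2.40 and 2.56 FPKM in replicates 1 to 4, and Gdf10 had 2.04, 1.67, 1.83 and 0.478 FPKM and passed in neither direction. The lowest were Gdf15 at 0.331 ± 0.194 and Mstn, myostatin, which was listed at 0 in 3 libraries and had 0.394 FPKM in replicate 2.

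Among 8 other receptors, 6 lay above 1 FPKM and 1 below. Bmpr1a, which encodes ALK3, a BMP type I receptor of many tissues, had 11.7, 7.67, 8.44 and 8.01 FPKM in replicates 1 to 4, above every one of the 6 receptors described above in each library. Acvr2a, a type II receptor for activins and BMPs, had 5.30 ± 1.33, Acvr2b 3.38 ± 1.06 and Bmpr1b 3.29 ± 0.722 FPKM (SD, n = 4). Amhr2, the receptor for anti-Müllerian hormone, had 0.680 ± 0.445 and Acvr1c 0.496 ± 0.192 FPKM. Of 5 other co-receptors and pseudoreceptors 3 lay above 1 FPKM, with Rgmb, a BMP co-receptor, at 10.8 ± 1.40, Neo1, neogenin, at 4.30 ± 1.69 and Bambi, a pseudoreceptor that dampens signalling, at 1.57 ± 0.366 FPKM. Rgma had 1.43 ± 0.600 and Tdgf1 0.825 ± 0.440 FPKM, both in neither direction.

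Both SMAD branches were measured. Of 8 SMAD genes 6 lay above 1 FPKM, led by Smad1 of the BMP branch at 9.81 ± 1.21 and Smad2 of the TGF-beta branch at 7.84 ± 1.15 FPKM (SD, n = 4). Smad4, the shared partner, had 5.45 ± 0.390 and Smad3 2.92 ± 0.769 FPKM. The lowest were Smad6, an inhibitor of the BMP branch, at 1.38 ± 0.399, and Smad9 at 0.949 ± 0.386 FPKM, both in neither direction. All 7 intracellular regulators lay above 1 FPKM. Fkbp1a, which binds type I receptors and many other proteins, had 312 ± 20.4, Skil and Ski, SMAD repressors, 4.50 ± 1.62 and 3.63 ± 0.904, and Smurf1, a ubiquitin ligase, 3.33 ± 1.04 FPKM. Smurf2 had 2.75 ± 1.09 and Tgif1 2.74 ± 0.550 FPKM.

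Id2 and Id3 were measured above Id1, and Id4 near it. Id2 had 213 ± 17.1, Id3 78.6 ± 3.46 and Id4 37.8 ± 6.87 FPKM, beside 39.1 ± 3.82 for Id1 (SD, n = 4). The first 2 exceeded Id1 in 4 of 4 libraries, while Id4, at 43.5, 41.0, 27.9 and 38.7 FPKM, overlapped it. The ID genes are also active in glia, choroid plexus and neurons, and the summed marker levels of those cells are given above. Of 10 known target genes, 8 lay above 1 FPKM and 1 below, with Tsc22d1 at 177 ± 13.4 FPKM. Atoh8, a target of the BMP branch in endothelium, had 1.36 ± 0.298 FPKM, in neither direction.

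Of 11 genes for storage and release of latent TGF-beta, 5 lay above 1 FPKM and 2 below. Itgb8 and Itgav, the integrin chains that release TGF-beta in the developing brain, had 7.55 ± 2.07 and 7.05 ± 2.76 FPKM (SD, n = 4). The latent TGF-beta binding protein genes Ltbp3 and Ltbp4 had 5.02 ± 0.689 and 4.35 ± 1.42 FPKM. Itgb6, an epithelial integrin chain, had 0.190 ± 0.0993 FPKM, and Ltbp2 was listed at 0 in 3 libraries with 0.0360 FPKM in replicate 1. Of 11 secreted antagonists 7 lay above 1 FPKM and 1 below. Sostdc1, which binds BMPs, had 61.4, 63.0, 78.8 and 83.3 FPKM in replicates 1 to 4, and Nbl1 had 28.5 ± 3.37, Twsg1 10.7 ± 1.91 and Bmper 3.54 ± 0.599 FPKM. The choroid plexus and ependyma markers summed to 14300, 11709, 16268 and 17202 FPKM in the same order of libraries, and their part in the level of Sostdc1 was not tested. Grem1, an antagonist of BMPs, had 0.253 ± 0.137 FPKM (SD, n = 4).

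Likeness of pattern was measured as the mean absolute difference of log2(FPKM + 1) over the 4 libraries, among the pathway and marker genes listed. The closest gene was Smad4 for Tgfb3, at 0.06, Ski for Bmpr2, at 0.06, Bmpr1b for Acvrl1, at 0.08, and for Tgfbr2, at 0.12, and Myh11, smooth muscle myosin, for Tgfbr1, at 0.09. Id1 was closest to Slc1a2, an astrocyte glutamate transporter, at 0.10, Tgfb2 to Bmp7, at 0.12, Tgfbr3 to Smurf1, at 0.11, Eng to Chrdl1, at 0.12, and Tgfb1 to Robo4, an endothelial receptor, at 0.12. The measure reads level and library pattern together, and no correlation is given over only 4 libraries.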

How the data were processed

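The authors deposited 1 table of FPKM for 46072 genes in 4 libraries. HISAT2 2.2.1, StringTie 2.2.1, SAMtools and bcl2fastq 2.20 are listed, with build GRCm38, in the submitters' processing notes. Which annotation and filters were used, how multiply matched reads were handled and whether strand was used is not stated there. Per the labels' protocols, RNA came from a Zymo Research kit and libraries from the NEBNext UltraExpress kit with mRNA enrichment and random priming.

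Columns were matched to samples by library name, with 0 left out. Values were analysed as log2(FPKM + 1). limma 3.58.1 (R 4.3.3) with a mean-variance trend was fitted over the 25206 genes above 0 in any library, with Benjamini-Hochberg adjustment, a threshold of 0.05, and a test on simulated data. GENCODE M21 (GRCm38) gave positions and longest transcripts for 45137 genes. Pairs were compared by exact sign-flip permutation. Alternatives changed pseudocount, filter, scaling, variance model, marker summary, length adjustment and libraries.

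The members and gene lists were chosen with earlier results of these data known. Named genes are the 10 members, up to 4 highest and 2 lowest of each of 9 pathway lists, the highest 2 and lowest 1 of each of 10 marker lists with any listed at 0, and the nearest listed gene to each member; most marker lists are given here as counts and sums, and some genes that the rule names are not reported here. No 2 libraries shared more than 4 identical values above 0. Figures were drawn with matplotlib 3.10.9.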

Additional observations from a re-analysis of the deposited data

Results flagged for a closer look

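Of 92 named genes above 0 in every library, tested for 1 library far from the other 3 of the group, 4 stood out and none of the 10 members did, while chance picks out about 1 in 20. Genes listed at 0 in any library, such as Mstn and Ltbp2 with 1 value above 0 each, were not tested. Acvr2b had 4.95 FPKM in replicate 3 and Chrdl1 had 3.34 FPKM in replicate 3, each above the other libraries. Grem1 had 0.0490 FPKM in replicate 4, below the others, and Ogn, a fibroblast marker, had 9.79 FPKM in replicate 2, below the others.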

How the results depend on the processing

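The 9 members above 1 FPKM kept that call under every alternative run, which changed the pseudocount, filter, scaling, variance model, length adjustment or libraries. Tgfb1 moved above 1 FPKM with each library rescaled to a fixed sum, at 0.52, and at 0.62 with mitochondrial genes left out of that sum (limma, adjusted p = 0.0492 and 0.0338), and passed in neither direction otherwise. Against the pan-endothelial median, 1 member lay below as reported, 2 with no filter or without a mean-variance trend, where Eng joined, 0 with genes of at least 1 FPKM alone, which removes Tgfb1, and 7 against the list mean, where Tgfb3 against the pan-endothelial level turned to -0.011 (mean of the list). Leaving out each library gave 2 to 3 members above and 1 below, 32 to 35 pairs in 1 order, and a median coefficient of variation of 18.2% to 24.8%, beside 22.0% with all 4 and 16.6% after length adjustment. Of all genes, 10104 lay below 1 FPKM as reported, 30135 with no filter, 5197 from 0.1 FPKM and 0 from 1 FPKM, and 14650, 35672, 9578 and 3157 lay below the pan-endothelial median. No pairing of samples between conditions was possible because the series has 1 group. Pairs of members, and members and the endothelial median, were compared within each library. Depth is unknown, so how far low values such as those of Tgfb1 are limited by reads cannot be given.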

Other observations

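One listed target gene outside the naming rule was chosen after its values were seen. Klf10, an early TGF-beta response gene, had 5.53, 11.5, 5.42 and 5.31 FPKM in replicates 1 to 4, highest in replicate 2. Other listed target genes were also highest there, with Id2 at 230 FPKM, Tsc22d1 at 197 FPKM and Ctgf at 18.9 FPKM, and the 10 listed targets summed to 524, 590, 511 and 555 FPKM in replicates 1 to 4.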
